A study of Homo sapiens with 6 samples.

Results

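The cadherin switch and its regulators were followed on 6 arrays of human ovarian carcinoma cell lines. The genes were CDH1, CDH2, VIM, ZEB1, ZEB2, SNAI1, SNAI2, TWIST1, ESRP1 and GRHL2. Every probe set whose only gene symbol in the array annotation was among these 10 genes was taken, which gave 21 of the 54675 probe sets. Each of the established ovarian carcinoma lines SKOV-3 and Caov-3 gave 3 groups: untreated cells, cells after 1 h of interleukin-6 (IL-6, 30 ng/ml), and cells held for 4 h with siltuximab (CNTO328), an antibody to IL-6, before the same hour of IL-6. Total RNA from 3 flasks of a group was pooled and measured on 1 Affymetrix U133 Plus 2.0 array. No group had a replicate, and precision is therefore limited by the array number. The labels state no siltuximab dose, and siltuximab without IL-6 was not analysed here.

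Epithelial cells are held together by E-cadherin, the product of CDH1. In an epithelial to mesenchymal transition (EMT) a cell lowers E-cadherin, often gains N-cadherin (CDH2) and builds intermediate filaments of vimentin (VIM). The zinc finger proteins ZEB1, ZEB2, SNAI1 and SNAI2 repress CDH1 by binding E-boxes, the helix-loop-helix protein TWIST1 also promotes the transition, and the splicing factor ESRP1 and the transcription factor GRHL2 maintain the epithelial state. IL-6 signals through gp130 to STAT3 and has been linked to EMT in carcinoma cells.

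Signals are deposited intensities on a linear scale, and 3 signals given together for a line are in the order untreated, IL-6, siltuximab plus IL-6. The median signal of an array was 72.6 to 89.6, and a signal under it is called dim here, since no detection calls were used. Across probe sets, r between arrays was 0.962 to 0.980 within a line and 0.867 to 0.883 between the lines. The Caov-3 IL-6 array stood apart in its control probe sets for beta-actin. Their 5' to 3' signal ratio was 0.494 there, against 0.643 to 0.767 on the other 5 arrays. For GAPDH the same ratio did not stand apart, at 1.05 there against 1.03 and 1.07 on the other Caov-3 arrays. In SKOV-3 the GAPDH ratio was 0.957 to 0.979.

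The labelled cell types were checked against marker genes. The epithelial keratins KRT8 and KRT18 were bright in both lines (7079 to 8584 and 25102 to 31109), while KRT19 was dim in SKOV-3 (4.37 to 57.9) and bright in Caov-3 (7263 to 7936). The ovarian carcinoma marker WT1 was dim on all 6 arrays (3.05 to 19.3), MUC16 was dim in SKOV-3 alone (2.92 to 5.90 against 593 to 860), as was MSLN (8.56 to 28.5 against 1961 to 2332), and the Müllerian factor PAX8 was at 495 to 683 in SKOV-3 and 971 to 1056 in Caov-3. ERBB2, which is known to be amplified in SKOV-3, went against that label, at 580 to 733 in SKOV-3 and 1017 to 1243 in Caov-3, and its other 2 probe sets ranged from 6.77 to 113 over both lines. CDKN2A, which is known to be deleted in SKOV-3 and was chosen after its values were seen, was at 73.8 to 175 in SKOV-3 and 4036 to 4271 in Caov-3 by its brightest probe set. By the other 2 it was at 1.99 to 16.8 against 2907 to 3088, and at 8.65 to 23.8 against 15.7 to 69.5, where the lines overlapped. SKOV-3 and Caov-3 below therefore mean the arrays so labelled.

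The 2 lines differed in most members, and in neither line was CDH2 above the array median. Caov-3 was higher for CDH1, ESRP1, GRHL2 and also TWIST1, and SKOV-3 was higher for VIM, ZEB1 and SNAI2. CDH2, ZEB2 and SNAI1 were at or below the array median in both lines, except for SNAI1 on a single SKOV-3 array. In RNA of whole cultures, fewer cells that express a gene and less RNA per cell cannot be told apart.

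The line difference was fitted with limma over all 6 arrays, with treatment as a block, on log2 of the signal plus a pseudocount of 17.06, a scale that understates the difference of a gene that is dim in either line. The 3 arrays of a line are 3 treatments and not replicates. The spread left by the fit is therefore how treatment differences varied between the lines, and not a spread of replicates. Of 25423 probe sets bright enough to be tested, 59.1% passed a Benjamini-Hochberg adjusted p of 0.05 (29.8% higher in Caov-3 and 29.3% lower), so that a difference between these lines was common. Of the 21 member probe sets 13 entered this fit, 6 of them higher in Caov-3 and 7 lower. That count is no support of its own, since 11 of the 13 entered through the arrays of a single line, which favours a difference. With no filter all 21 were tested, and the same fit called 6 higher, 7 lower and left 8 uncalled, beside 35.9% called of all 41091 (18.5% higher and 17.4% lower).

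**Figure D1:**
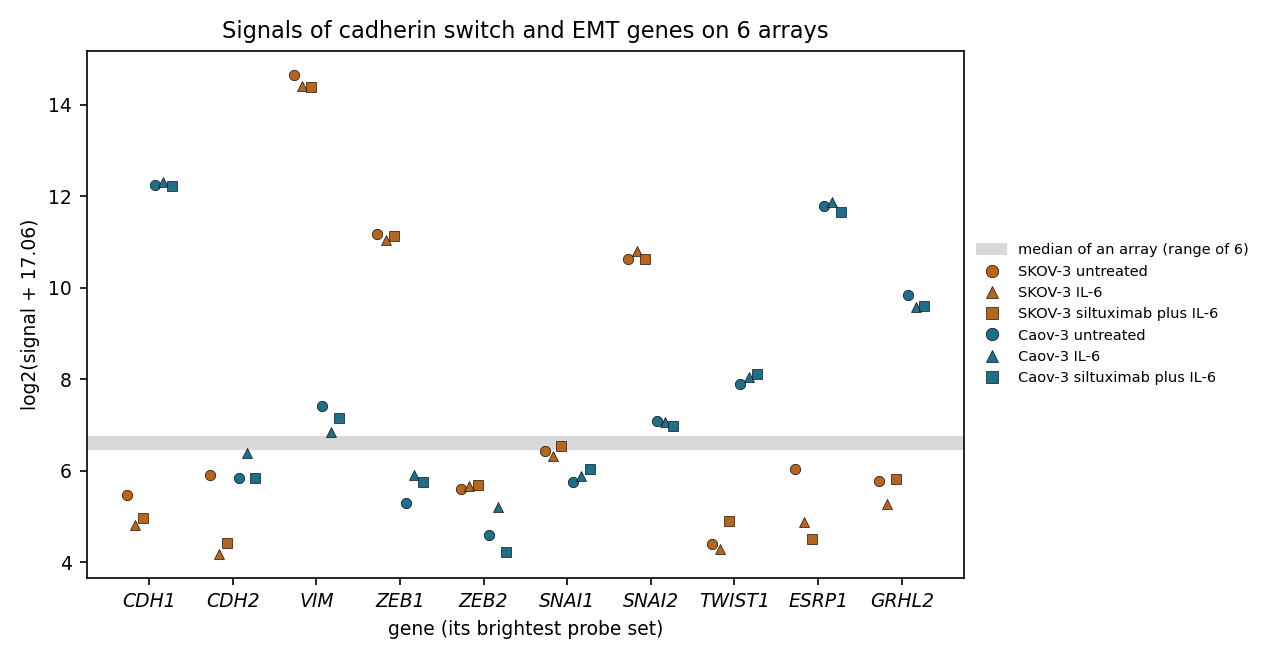
Log2 of signal plus 17.06 (vertical axis) of the brightest probe set of each of the 10 genes on the 6 arrays, coloured by line, with a shape for each treatment; the grey band is the range of the array medians. CDH1, TWIST1, ESRP1 and GRHL2 lie above the band in Caov-3 alone, ZEB1 lies above it in SKOV-3 alone, and VIM and SNAI2 lie on or above it in both lines and far higher in SKOV-3.

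Of the 2 cadherins, CDH1 marked Caov-3. Its brighter probe set, 201131_s_at, was at 27.5, 11.0 and 14.4 on the SKOV-3 arrays and 4840.3, 5094 and 4763 on those of Caov-3. All 3 Caov-3 arrays were far above all SKOV-3 arrays, where the probe set was dim (percentile 18.6 to 28.5 of the array), with a log2 difference of 7.17 (SE 0.18, limma adjusted p = 1.04e-05). By size this was rank 36 of the 25423 differences. The second probe set of CDH1, 201130_s_at, was at 33.9, 11.3 and 5.61 in SKOV-3, against 363, 35.5 and 214 in Caov-3. The Caov-3 IL-6 array was thus dim and close to the untreated SKOV-3 array, although no SKOV-3 array reached it. Its line difference was 2.38 (SE 0.53, adjusted p = 0.0109). The call was lost without the SKOV-3 untreated array (adjusted p 0.0651), the SKOV-3 siltuximab array (0.0523), the Caov-3 untreated array (0.0721) or the Caov-3 siltuximab array (0.0669).

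CDH2 was dim on all 6 arrays by both probe sets. Probe set 203440_at was at 43.6, 1.17 and 4.29 on the SKOV-3 arrays and 40.5, 67.1 and 40.1 on those of Caov-3, so that the untreated SKOV-3 array lay within the Caov-3 range. In the fit with no filter its difference was 1.18 (SE 0.48, adjusted p = 0.108). Probe set 203441_s_at was at 16.0, 17.6 and 39.7 in SKOV-3, against 10.4, 33.5 and 23.7 in Caov-3, with overlapping lines and a difference of -0.07 (SE 0.33, adjusted p = 0.903). In SKOV-3, then, the probe sets of both cadherins were dim.

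VIM had the largest line difference among the members on this scale, though not with a pseudocount of 1 (VIM -7.51, CDH1 8.14, ESRP1 7.73) or with the probe sets of a gene averaged (VIM -5.36, ESRP1 6.97). Probe set 201426_s_at was at 25830.5, 21648 and 21292 in SKOV-3, within the top 1% of each array (percentile 99.5 to 99.6), and at 154, 98.3 and 126 in Caov-3, just above the median of each array. The log2 difference was -7.34 (SE 0.10, adjusted p = 5.98e-06), rank 27 of all differences by size. The second probe set, 1555938_x_at, was at 259, 327 and 290 on the SKOV-3 arrays and 9.11, 18.5 and 10.2 on those of Caov-3, again without overlap, and differed by -3.39 (SE 0.26, adjusted p = 0.000178).

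Among the zinc finger repressors of CDH1, ZEB1 was seen in SKOV-3 alone. Probe set 212764_at was at 2293, 2085 and 2243 in SKOV-3, against 22.2, 43.0 and 36.8 in Caov-3, a log2 difference of -5.47 (SE 0.19, adjusted p = 2.01e-05). Probe set 210875_s_at was at 519, 610.3 and 654 against 19.9, 23.1 and 2.52 (difference -4.31, SE 0.32, adjusted p = 0.000165). Probe set 212758_s_at was at 279.9, 295 and 296 against 68.8, 26.8 and 46.0 (difference -2.31, SE 0.28, adjusted p = 0.000977). All 4 probe sets of ZEB1 were without overlap between the lines, but the share of all probe sets without overlap was not counted. They entered the fit through SKOV-3 arrays alone, which favours a difference. The dimmest of them, 239952_at, was at 61.1, 93.1 and 97.1 on the SKOV-3 arrays and 6.28, 29.4 and 30.0 on those of Caov-3, with a difference of -1.42 (SE 0.33, adjusted p = 0.0120). That call was lost without the SKOV-3 untreated array (adjusted p 0.0603), the SKOV-3 siltuximab array (0.0702) or the Caov-3 siltuximab array (0.0536).

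Its paralog ZEB2 had 5 probe sets, and all were dim on all 6 arrays. The brightest, 203603_s_at, was at 31.9, 34.1 and 34.6 in SKOV-3, against 7.08, 20.1 and 1.76 in Caov-3, so that all SKOV-3 arrays were higher, with a difference of -0.98 in the fit with no filter (SE 0.31, adjusted p = 0.0534). The other 4 ranged from 0.879 to 36.6 over both lines and differed by -0.55 to -0.15, with adjusted p of 0.193 to 0.685.

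RefSeq start sites (GRCh38.p14) were found for 4 of the 10 genes, namely CDH2, VIM, ZEB1 and ZEB2, and not matched for CDH1, SNAI1, SNAI2, TWIST1, ESRP1 and GRHL2. Windows from 250 bases before to 50 after a start are shown for ZEB1, which was called between the lines, for its paralog ZEB2, which was not, and for VIM, which was called by both of its probe sets. Capitals mark the E-box CAGGTG or its reverse complement CACCTG, the letters to which the ZEB and SNAI proteins bind. Of the 7 ZEB1 windows the one with most matches is printed, chr10:31318966-31319265 on the plus strand, followed by ZEB2, chr2:144520070-144520369 on the minus strand, and VIM, chr10:17227991-17228290 on the plus strand.
ZEB1: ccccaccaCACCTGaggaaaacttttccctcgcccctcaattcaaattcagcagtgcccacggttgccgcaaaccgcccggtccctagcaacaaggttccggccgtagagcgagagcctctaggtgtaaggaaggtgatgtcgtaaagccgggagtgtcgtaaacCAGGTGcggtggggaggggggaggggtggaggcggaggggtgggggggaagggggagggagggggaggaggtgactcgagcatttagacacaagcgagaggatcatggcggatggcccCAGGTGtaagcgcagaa
ZEB2: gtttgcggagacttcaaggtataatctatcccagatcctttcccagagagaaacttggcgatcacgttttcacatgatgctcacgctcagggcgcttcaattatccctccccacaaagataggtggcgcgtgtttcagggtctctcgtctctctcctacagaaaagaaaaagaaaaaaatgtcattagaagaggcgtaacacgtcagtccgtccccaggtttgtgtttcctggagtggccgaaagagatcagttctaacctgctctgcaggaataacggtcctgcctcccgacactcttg
VIM: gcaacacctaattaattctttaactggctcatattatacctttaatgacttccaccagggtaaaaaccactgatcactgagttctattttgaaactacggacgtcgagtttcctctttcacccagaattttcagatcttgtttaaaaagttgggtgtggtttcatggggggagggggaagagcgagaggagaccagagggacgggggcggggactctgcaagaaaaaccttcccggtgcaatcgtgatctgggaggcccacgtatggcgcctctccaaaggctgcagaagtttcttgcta
The ZEB1 window held 3 matches, and the windows of ZEB2 and VIM held 0. Of all 11 windows of the 4 genes 2 held the E-box, both of ZEB1, beside 20.6% of 35116 windows of the same length over all genes. The letters TTCNNNGAA, the core that STAT proteins bind, read the same on both strands and were in 0 of the 11 windows and in 7.66% of all. A match describes the letters of these windows alone.

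The SNAI genes differed from each other. SNAI2 was at 1568, 1777 and 1575 on the SKOV-3 arrays and 120.3, 117 and 109 on those of Caov-3, a log2 difference of -3.64 (SE 0.13, adjusted p = 2.06e-05). All SKOV-3 arrays were above all Caov-3 arrays, and Caov-3 was still above the median of its arrays (percentile 53.5 to 58.0). SNAI1 was at 69.4, 63.5 and 76.9 in SKOV-3, against 37.4, 42.2 and 48.4 in Caov-3. The SKOV-3 arrays were higher without overlap, but only the siltuximab array passed its median, and the difference of -0.54 was not called in the fit with no filter (SE 0.31, adjusted p = 0.240).

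TWIST1 stood against ZEB1 and SNAI2. It was dim in SKOV-3 at 3.96, 2.69 and 12.8 and above the median in Caov-3 at 223, 249 and 262, the line with high CDH1. The log2 difference was 3.50 (SE 0.29, adjusted p = 0.000249), with every Caov-3 array above every SKOV-3 array.

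Both factors of the epithelial state followed CDH1. ESRP1, which directs epithelial splice forms, was at 48.8, 12.4 and 5.64 on the SKOV-3 arrays and 3514, 3765 and 3197 on those of Caov-3 by probe set 219121_s_at (difference 6.63, SE 0.30, adjusted p = 3.93e-05). By probe set 225846_at it was at 9.36, 2.24 and 2.51 against 3464, 3518 and 3184 (difference 7.30, SE 0.18, adjusted p = 1.02e-05, rank 30 by size). GRHL2, a grainyhead factor that activates junction genes, was at 37.5, 21.8 and 40.0 against 906, 753 and 764 (difference 4.05, SE 0.20, adjusted p = 4.95e-05). All SKOV-3 arrays were dim and all Caov-3 arrays bright for each of these 3 probe sets.

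**Figure D2:**
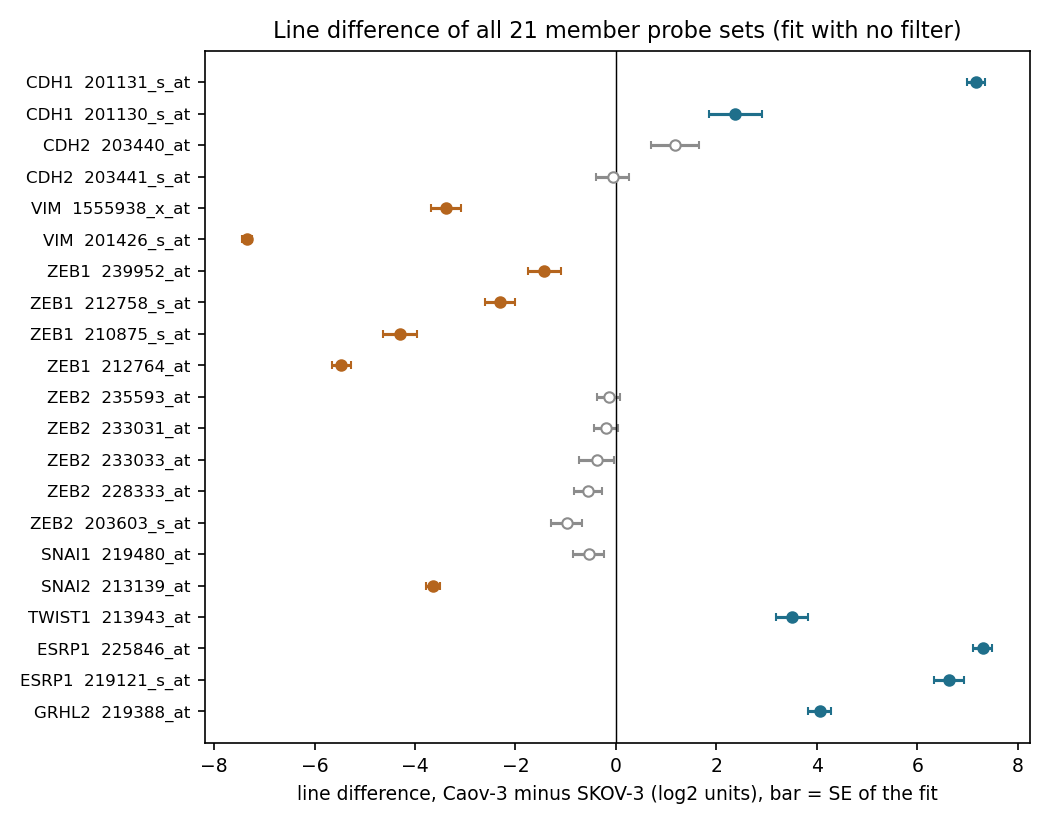
Line difference (Caov-3 minus SKOV-3, log2 units) of all 21 member probe sets in the limma fit with no filter, with the SE of the fit as bars; colours mark calls at an adjusted p under 0.05, grey marks none, and open points are the 8 probe sets too dim for the filtered fit. The 13 called probe sets run from -7.34 for VIM to 7.30 for ESRP1, and probe sets of the same gene lie on the same side, except those of CDH2, which lie at 1.18 and -0.07.

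Other genes of the same programmes were counted by the brightest probe set of each gene, beside 13190 genes of which 64.7% were called (35.5% higher in Caov-3, 29.2% lower) with a median difference of 0.07. Further epithelial transcription factors were higher in Caov-3 in 6 of 6 tested genes (median 2.94), of which 1, GRHL3, entered through Caov-3 alone. Among them were EHF at 5.91, an ETS factor of epithelia, OVOL1 at 3.81 and OVOL2 at 3.19, which repress mesenchymal genes, and the grainyhead factor GRHL1 at 2.69. Epithelial effector genes were higher in 12 of 15, lower in 1 and not called in 2 (median 3.54). Of the 12, 7 were dim on every SKOV-3 array and entered through Caov-3 alone, which favours a difference. The other 5 entered through both lines. The 4 of largest size were the keratin gene KRT19 at 7.80, the protease inhibitor gene SPINT1 at 5.98, the small GTPase gene RAB25 at 5.78 and the claudin gene CLDN3 at 5.60. Each of these 4 was among the 7 that entered through Caov-3 alone. The desmosomal DSP was lower in Caov-3 (-0.41, SE 0.12, adjusted p = 0.0297). KRT8 and KRT18 were at -0.05 and -0.07 and were not called, although KRT18 was lower in Caov-3 after quantile normalization (-0.16, adjusted p = 0.0176). The adhesion molecule EPCAM was higher in Caov-3 by 3.54 yet bright in SKOV-3 as well, at 1891, 2223 and 1728.

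Mesenchymal effector genes did not follow VIM as a group. Of 11 tested, 6 were higher in Caov-3, 3 were lower and 2 were not called (median 0.64). Among those not called, MMP2 (-0.38, SE 0.30, limma adjusted p = 0.327) had entered through SKOV-3 alone. Lower in Caov-3, and so on the side of VIM, were the calcium-binding S100A4 at -2.53, the integrin subunit gene ITGA5 at -1.93 and the receptor kinase gene AXL at -1.57. Higher in Caov-3 were the collagen gene COL1A1 at 3.94, the smooth muscle genes TAGLN at 1.74 and ACTA2 at 1.62, the collagen crosslinking enzyme LOX at 1.41, SPARC at 0.83 and fibronectin (FN1) at 0.64. The 2 further TAGLN probe sets differed by -0.06 and 1.46, and only 1 of them was called higher. The further SPARC probe set was called higher at 3.09. COL1A1 was at 217, 339 and 252 in SKOV-3, against 3802, 4394 and 4826 in Caov-3, and its 3 further probe sets were called the same way. COL1A1 is also a fibroblast marker. Of the 5 fibroblast markers the other 4, COL3A1, LUM, DCN and PDGFRA, were too dim to enter the fit, and the sum of all 5 was 405 to 522 in SKOV-3 and 3937 to 4893 in Caov-3. Of 3 endothelial markers CDH5 and VWF were too dim to enter, PECAM1 was higher in Caov-3, and the sum was 157 to 249.6 in SKOV-3 and 408 to 1206 in Caov-3. Of 5 leukocyte markers PTPRC and CD3E were too dim, CD14 was higher in Caov-3, LCP1 and CD79A were not called, and the sums were 367 to 740.0 and 884 to 970.1. The part of such cells in the differences was not tested.

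Of the 8 further EMT transcription factors measured, SNAI3, FOXC2, PRRX1 and GSC were too dim in both lines to enter. Of the 4 tested, 3 were higher in Caov-3 and 1 was lower (median 3.16). The 3 higher ones, TWIST2, KLF8 and TCF4, were dim on every SKOV-3 array and entered through Caov-3 alone. Such entry favours a difference, and their count supports nothing. TWIST2, the paralog of TWIST1, was at 3.48, 24.9 and 20.7 on the SKOV-3 arrays and 334, 474 and 384 on those of Caov-3 (difference 3.68, SE 0.26, adjusted p = 0.000149). KLF8 differed by 3.27, and TCF4, an E protein that pairs with TWIST factors, by 3.04. TCF3, the other E protein of the list, was lower in Caov-3, at -1.23 (SE 0.29, adjusted p = 0.0133).

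At the junction itself, the P-cadherin gene CDH3 went with CDH1 and not with CDH2. It was at 21.7, 4.12 and 4.83 in SKOV-3, against 1638, 1469 and 1517 in Caov-3, a difference of 5.89 (SE 0.23, adjusted p = 2.61e-05), and like CDH1 it entered through Caov-3 alone. CDH5, CDH6 and CDH11 were too dim to enter the fit. Of the cytoplasmic proteins of cadherin junctions plakoglobin (JUP) was higher in Caov-3 at 2.39, and vinculin (VCL) at -1.08 was lower. Alpha-catenin (CTNNA1) was higher at 0.39 by its brightest probe set. The 4 further CTNNA1 probe sets differed by -0.07 to 0.28, and only 1 of them was called higher. Beta-catenin (CTNNB1) at -0.01 (SE 0.17, adjusted p = 0.973) and afadin (AFDN) at -0.16 were not called by their brightest probe sets. The 3 further AFDN probe sets differed by -1.55 to -0.31, however, and 2 of them were called lower in Caov-3.

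**Figure D3:**
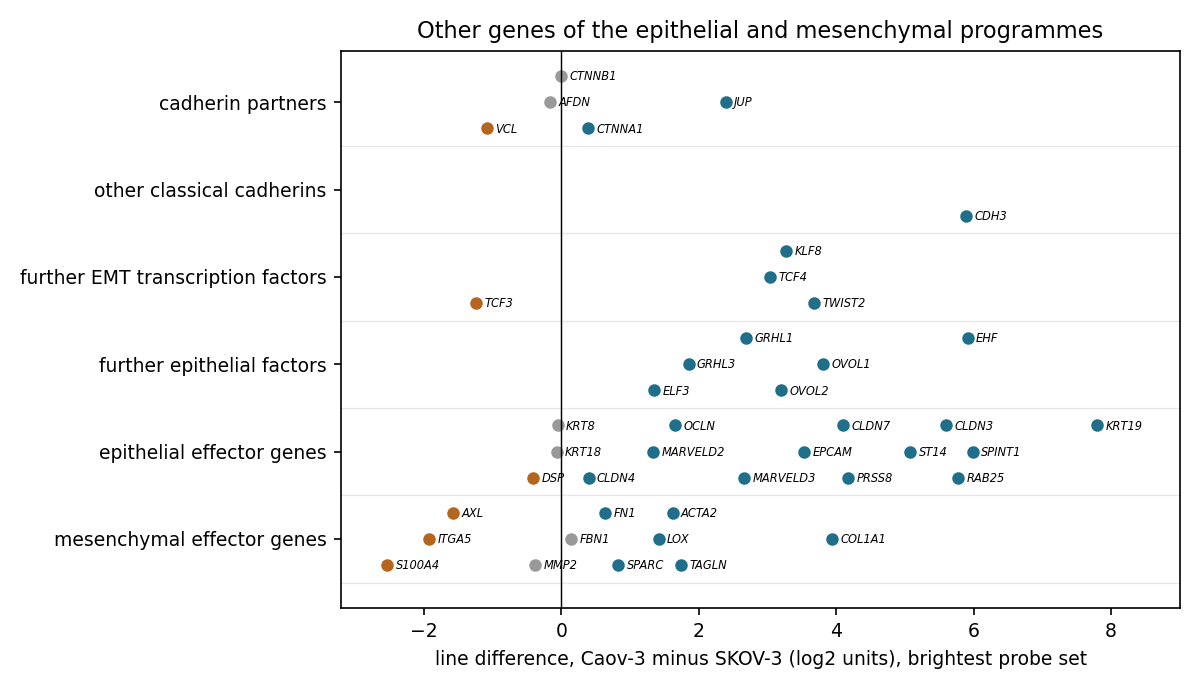
Line difference (Caov-3 minus SKOV-3, log2 units) of the brightest probe set of each tested gene in 6 lists, blue where called higher in Caov-3, brown where called lower and grey where not called. All 6 further epithelial factors lie to the right of 0, while the 11 mesenchymal effector genes spread from -2.53 for S100A4 to 3.94 for COL1A1.

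The genes with profiles nearest to 3 members were sought by the Euclidean distance between log2 values centred over the 6 arrays, among 13183 other genes, a measure that is set almost wholly by the line. Nearest to CDH1 were MSN, whose product moesin ties the membrane to actin, at a distance of 0.25, the scavenger receptor gene OLR1 at 0.32, the proteoglycan gene SRGN at 0.42, PON3 at 0.60 and COXFA4L3 at 0.62. MSN was at 41.3, 23.0 and 27.4 on the SKOV-3 arrays and 5971, 7174 and 7352 on those of Caov-3. Nearest to VIM were the transmembrane collagen gene COL13A1 at 0.35, the matricellular gene CCN2 at 0.49, CCDC50 at 0.67, the coagulation inhibitor gene TFPI at 0.89 and LINC00973 at 0.89. Nearest to ZEB1 were the claudin gene CLDN11 at 0.41, the Rap activator gene RAPGEF2 at 0.53, the caveolar CAVIN2 at 0.53, the transcription factor gene GATA6 at 0.55 and endoglin (ENG) at 0.60.

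The second question was whether 1 h of IL-6, with or without siltuximab before it, moved these genes within a line. With 1 array a group there is no test within a line, and a probe set entered a comparison if the higher of its 2 arrays was at or above its median. Each fold is given beside a robust SD, the scaled median absolute deviation of the folds among equally bright probe sets (10 groups of brightness). IL-6 over untreated and siltuximab plus IL-6 over IL-6 share the IL-6 array of a line.

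In SKOV-3 no member that entered was 2-fold apart in either comparison. With IL-6, 0 of 7 probe sets were at least 2-fold apart, beside 4.05% of all 23852, and with siltuximab over IL-6 0 of 8, beside 2.36% of 23591. VIM (201426_s_at) had log2 folds of -0.25 with IL-6 and -0.02 with siltuximab over IL-6, where equally bright probe sets had robust SDs of 0.19 and 0.11. ZEB1 (212764_at) was at -0.14 and 0.10 (robust SDs 0.20 and 0.14), and its 3 other probe sets were at 0.07 to 0.49 with IL-6 and at 0.00 to 0.10 with siltuximab. SNAI2 was at 0.18 and -0.17 (robust SDs 0.22 and 0.16), its IL-6 array being the highest of the 3. SNAI1, which entered the siltuximab comparison alone, was at 0.22 (robust SD 0.71). These folds were of the size of the scatter of other probe sets.

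In Caov-3, 7 of the 8 member probe sets that entered were less than 2-fold apart in both comparisons, among them every probe set of ESRP1 and GRHL2. With IL-6 the brighter probe set of CDH1 was at 0.07 (robust SD 0.21), ESRP1 at 0.10 and 0.02 by its 2 probe sets, GRHL2 at -0.26 (robust SD 0.30) and TWIST1 at 0.14 (0.45). With siltuximab over IL-6 the same probe sets were at -0.10, -0.23, -0.14, 0.02 and 0.07. SNAI2 was at -0.03 and -0.09. VIM, near the array median in this line, was at -0.57 and 0.31, where equally bright probe sets had robust SDs of 0.57 and 0.53.

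The exception was the second probe set of CDH1, 201130_s_at, whose signal was 363 untreated, 35.5 after IL-6 and 214 where siltuximab came before IL-6. Its log2 folds were -2.85 and 2.14, against robust SDs of 0.57 and 0.53. It was the only 1 of 8 member probe sets at least 2-fold apart with IL-6, beside 10.3% of all 24444 (8.42% lower). It was also the only 1 of 8 with siltuximab over IL-6, beside 8.53% of 24286 (7.13% higher). Both folds rest on the Caov-3 IL-6 array, on which the 5' to 3' ratio was lowest for beta-actin but not for GAPDH. The part of the beta-actin ratio in the folds was not tested. The brighter CDH1 probe set, at 4840.3, 5094 and 4763, did not show the dip. Among the genes of the 6 lists, 1 of 42 was at least 2-fold lower on the same array against untreated, TCF3 at 797 against 1858, and it was at 1827 on the siltuximab array. In SKOV-3 1 of 30 was at least 2-fold higher with IL-6, the cadherin gene CDH11 at 85.0, just above the array median, against 20.3.

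**Figure D4:**
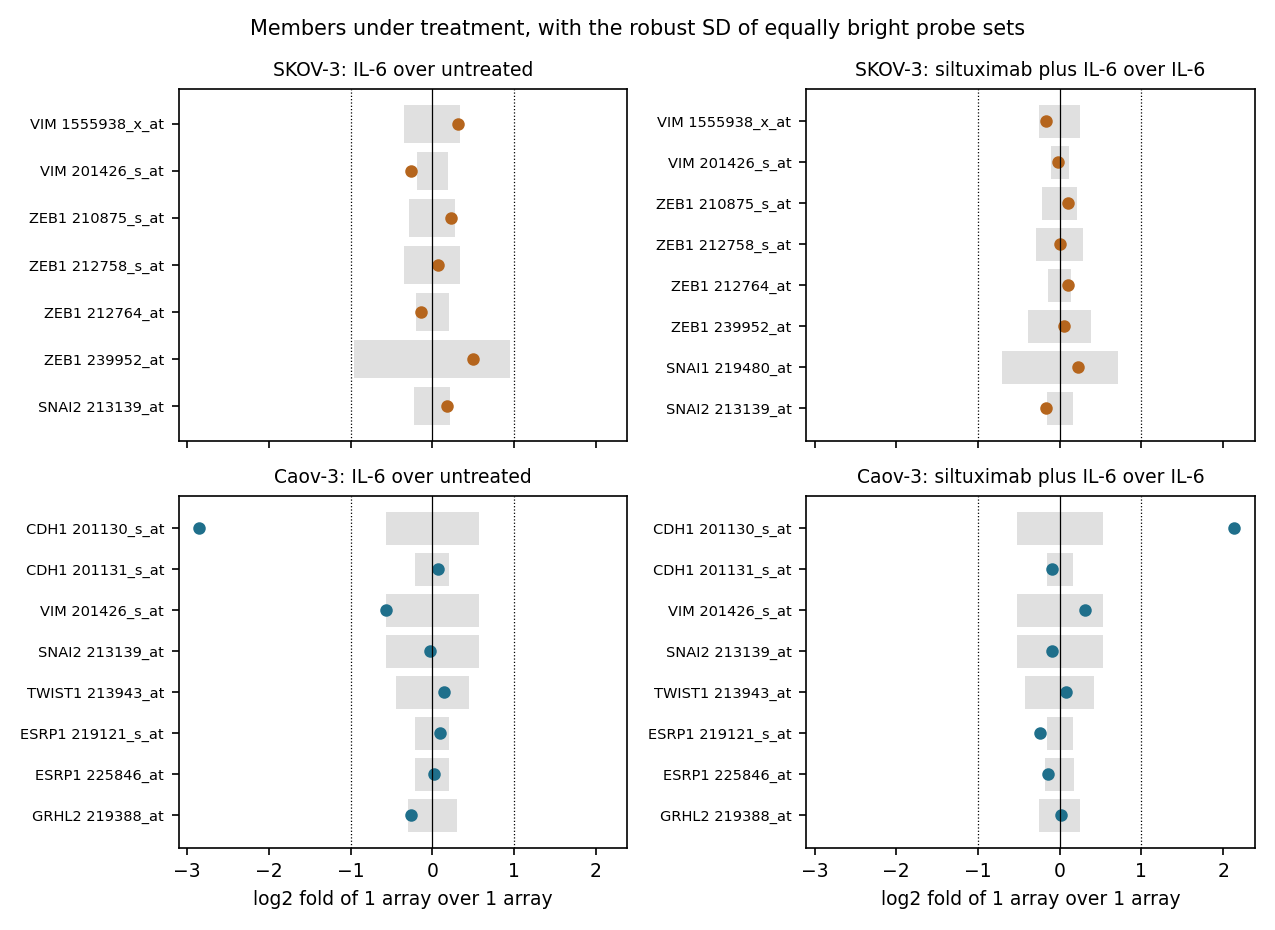
Log2 folds of 1 array over 1 array (points) of the member probe sets that entered each comparison, by line and comparison; grey bars span plus and minus the robust SD of equally bright probe sets, and dotted lines mark 2-fold. All points lie inside the dotted lines except CDH1 201130_s_at in Caov-3, at -2.85 with IL-6 and 2.14 with siltuximab over IL-6.

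Over both lines together, limma called 0 of the 13 member probe sets for IL-6 against untreated and 0 for siltuximab plus IL-6 against IL-6, beside 0% of 25423 in each. At an unadjusted p under 0.05 there were 2016 probe sets for IL-6, 2 of them members, and 671 for siltuximab, 0 of them members. The 2 members were VIM 201426_s_at, at -0.41 (SE 0.13, adjusted p = 0.601), and CDH1 201130_s_at, at -1.85 (SE 0.65, adjusted p = 0.614). Of the other members ZEB1 was at 0.24 (SE 0.24) by 212764_at and -0.45 to 0.74 by its 3 other probe sets (0.74 with SE 0.40 for 239952_at), SNAI2 at 0.07 (SE 0.16), TWIST1 at 0.03 (SE 0.36), CDH1 201131_s_at at -0.30 (SE 0.23), ESRP1 at -0.53 (SE 0.37) by 219121_s_at and -0.22 (SE 0.22) by 225846_at, and GRHL2 at -0.38 (SE 0.25) for IL-6. The SEs of the members, 0.13 to 0.65, limit the size of difference that 6 arrays can resolve. Without the SKOV-3 IL-6 array, so that IL-6 stood on Caov-3 alone, CDH1 201130_s_at (-2.97, adjusted p = 0.00679) and VIM 201426_s_at (-0.57, adjusted p = 0.0384) were called for IL-6, beside 8.29% of all probe sets (2108). CDH1 201130_s_at was then also called for siltuximab (2.02, adjusted p = 0.0490), beside 5.87% (1493), so that these calls rest on the Caov-3 IL-6 array.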

How the data were processed

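Each deposited value is the linear signal intensity of a probe set. The submitters' processing notes name Affymetrix Expression Console and MAS5. For both, the version is not given in the sources used here. As the file shows, the authors' intensities had been scaled by array (2% trimmed mean 500.06 to 500.07). Groups came from the sample titles. Of 54675 probe sets, 62 array controls, 1801 with several gene symbols and 11721 without one were left out, and 41091 had 1 symbol in the array annotation, of which 41037 matched current gene records.

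Values were taken to log2 after adding 17.06, the 20th percentile of all signals of named probe sets. A probe set entered the fit if at least 2 of 6 arrays were at or above their own median. The model, in limma 3.58.1 under R 4.3.3, had terms for line and for treatment over all 6 arrays and a prior variance with a trend (2 residual degrees of freedom), p-values were adjusted over all probe sets tested, and the fit was checked on simulated data. Where nothing says that flasks were separate cultures, p-values measure only the spread between these arrays. The brightest probe set by mean log2 value stood for a gene in the lists, and any list gene could be named, the 4 of largest difference first. For CDH1, VIM and ZEB1, whose values span at least 2 log2 units, the 5 nearest genes were named. The members, lists and rules were chosen with earlier results of these data known. Python 3.11.15 was used with pandas 2.3.3, numpy 2.4.6, matplotlib 3.10.9 and scipy 1.17.1. Alternatives were other pseudocounts, filters, scalings, features and priors, no treatment term, and each array left out.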

Additional observations from a re-analysis of the deposited data

How the results depend on the processing

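The line differences of the brightest probe sets of CDH1, VIM, ZEB1, SNAI2, TWIST1, ESRP1 and GRHL2 kept their direction and their call under every alternative that was run and in which the probe set was tested. They ranged from 4.78 to 8.14 for CDH1, -7.51 to -5.36 for VIM, -6.03 to -3.38 for ZEB1, -3.81 to -2.95 for SNAI2, 1.60 to 5.28 for TWIST1, 4.77 to 7.73 for ESRP1 and 2.67 to 4.61 for GRHL2 over settings other than an array left out. The TWIST1 values are those with the median and with 1 as the pseudocount. The smallest sizes for CDH1, VIM and ZEB1 are those with a gene's probe sets averaged. Their brightest probe sets alone were smallest with the median as the pseudocount, at 5.29, -6.60 and -4.00. Of 13 member probe sets called between the lines, 8 were called with a filter at percentile 75 and 7 with the brightest probe set of each gene. With a gene's probe sets averaged 7 were called, and 6 when _x_at and _s_at probe sets were left out. In each case these were all that were tested. Most members entered the main fit through the arrays of a single line, so these counts are no support of their own. The share of all probe sets called in these settings is not given here. With an array left out, 11 to 13 were called for the line (43.6% to 62.3% of all probe sets), 0 to 2 for IL-6 and 0 to 1 for siltuximab. Members at least 2-fold apart within SKOV-3 numbered 2 with IL-6 and 1 with siltuximab when no filter was used, and 2 with siltuximab in Caov-3, beside 9.25%, 6.89% and 11.8% of all probe sets. In Caov-3 they numbered 0 for both comparisons with a filter at percentile 75 and when _x_at and _s_at probe sets were left out, since both settings leave out CDH1 201130_s_at. With 1 array a group there were no replicates to pair. The line and treatment terms of the fit already set the arrays of a treatment, and of a line, against each other. Signals under the array median, where CDH2, ZEB2 and SNAI1 lie, limit what can be seen of these genes.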
